A study of Mus musculus with 4 samples.

Results

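Transcripts of 9 genes of blood clotting and plasminogen activation were followed in mouse mesenchymal cells that carried either wild type or mutant histone H3.3. The genes were picked by symbol from the 20325 in the deposited matrix: F3, Tfpi, F2r, Thbd and F13a1 of the clotting system, and Plat, Plau, Plaur and Serpine2 of the plasminogen system. All 9 were found. The choice was made with the difference between mutant and wild type cells already in view, so that difference is described for the 9 genes with its size and spread but without a test.

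Clotting starts when tissue factor, the product of F3, meets a plasma protease at a cell surface, and it ends in thrombin, which cuts fibrinogen to fibrin and signals through receptors such as the product of F2r. Factor XIII then cross-links the fibrin. Plasmin dissolves it, and is made from plasminogen by the activators tPA (Plat) and uPA (Plau), which serpin inhibitors hold in check. Mesenchymal cells around vessels are known to carry tissue factor, and the same proteases also remodel matrix and take part in migration.

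The cells were C3H10T1/2, a multipotent mesenchymal line derived from C3H mouse embryos, at passage 10 to 15 in serum-supplemented DMEM. One group stably expressed FLAG-HA-tagged wild type H3.3 (H3.3 WT, n = 2 libraries) and the other FLAG-HA-tagged H3.3 with the lysine-to-methionine substitution K36M (H3.3 K36M, n = 2). The labels describe no change to the cells' own histone genes, and they do not say whether a group was 1 clone or a pool, or whether its libraries were separate cultures. The p-values below therefore rest on a spread between libraries that may be technical. K36M is known to block H3K36 methyltransferases, and the comparison asks what the mutant histone does to expression in mesenchymal cells.

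Depth ran from 23343297 to 56041798 expected counts per library and was 1.85 times greater in K36M. The labelled cell type was checked against its markers. All 10 mesenchymal markers were detected, with a summed level of 49005 and 49405 CPM (counts scaled to equal library size) in WT and 30935 and 28935 CPM in K36M. In the test described below, 3 of them rose (Col1a1, Thy1 and Twist1), 6 fell and Prrx1 did not pass. Of all genes tested, 75.6% were called. The largest part of the fall in the sum was Fn1, from 17741 and 18479 CPM in WT to 6096 and 5809 CPM in K36M. The summed levels of markers of other cell types were lower. The endothelial marker Flt1, however, exceeded the mesenchymal markers Thy1 and Twist1 in every library. The 13 macrophage markers summed to 8.63 and 9.38 CPM in WT and 16.3 CPM in each K36M library. The 12 endothelial markers, of which Cldn5 was at 0 throughout, summed to 99.5 and 98.5 CPM in WT and 95.9 and 92.0 CPM in K36M. The 8 epithelial markers, with Epcam and Cldn4 at 0 throughout, summed to 12.2 and 11.1 CPM in WT and 24.4 and 25.8 CPM in K36M. That sum mixes both directions. Cdh1 rose from 5.89 and 5.56 CPM in WT to 22.3 and 24.1 CPM in K36M, and Krt8 from 0.121 and 0.174 to 0.968 and 0.777 CPM. Krt14 fell from 5.97 and 5.26 CPM in WT to 0.775 and 0.72 CPM in K36M. In bulk RNA, fewer cells of a type and less RNA per cell cannot be told apart.

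The clotting and plasminogen genes moved in different directions. Thbd, Serpine2 and F3 were lower in the K36M cells, F13a1, F2r, Plat and Plaur were higher, and the levels of Tfpi and Plau overlapped between the groups. A gene was called at a Benjamini-Hochberg adjusted p under 0.05 in edgeR's quasi-likelihood test over 13162 genes. All 9 members passed the low-count filter, F13a1 only through its K36M libraries. Of all genes tested, 75.6% were called (38.5% higher and 37.1% lower). Calls of the 9 members are not counted, since they were chosen with this difference in view. The split over all genes moved with the scaling, from 5070 higher and 4879 lower to 4360 and 5709 under the authors' library factors and 5540 and 4369 under total counts. The 4 libraries were separated by group for 7 of the 9, against 87.1% of all genes tested. The median log2 fold change was 0.06 over the members and 0.00 over all genes tested.

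**Figure D1:**
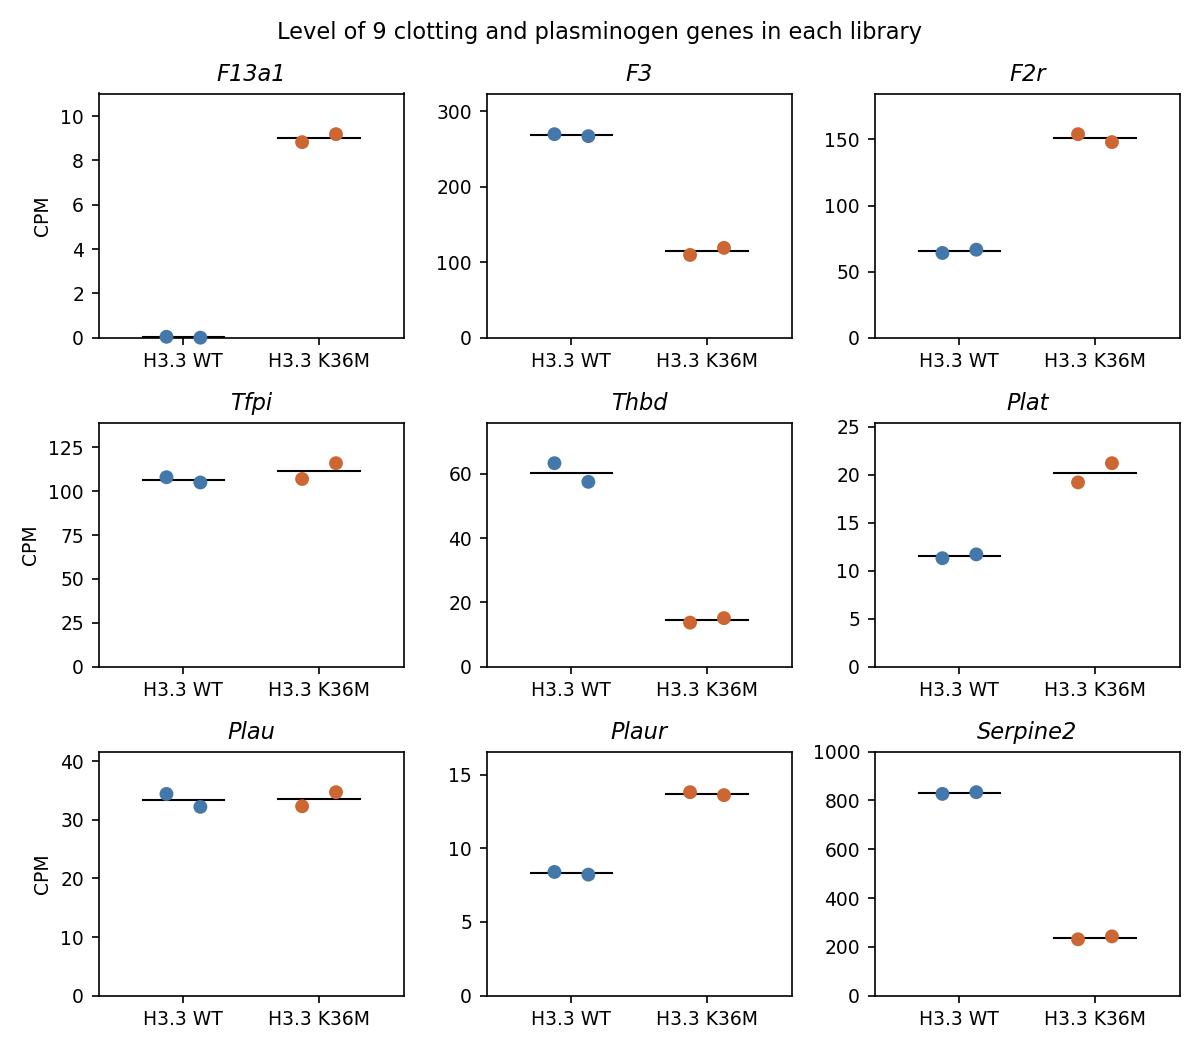
Level in CPM (vertical axis, from 0, scaled for each gene) of the 9 genes in each library of H3.3 WT (blue) and H3.3 K36M (orange); points are libraries and lines are means of 2. Thbd, Serpine2 and F3 lay lower in both K36M libraries, F13a1, F2r, Plat and Plaur higher, and Tfpi and Plau overlapped.

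The promoters of the 4 members with the widest contrasts for which the RefSeq promoter table holds a sequence are shown here. Each line gives the 250 bases before an annotated start site, 5′ to 3′ on the gene's strand, on build GRCm38.p6. Capitals mark the GC box GGGCGG, a binding site of Sp1 family factors, and the AP-1 element TGANTCA, each searched on both strands together with the TATA box TATAAA. Neighbouring GC boxes can overlap and then form 1 longer run of capitals. F13a1 has 2 annotated start sites, and the counts do not show which was used.
F13a1, upstream start site, chr13:37050245-37050494, minus strand: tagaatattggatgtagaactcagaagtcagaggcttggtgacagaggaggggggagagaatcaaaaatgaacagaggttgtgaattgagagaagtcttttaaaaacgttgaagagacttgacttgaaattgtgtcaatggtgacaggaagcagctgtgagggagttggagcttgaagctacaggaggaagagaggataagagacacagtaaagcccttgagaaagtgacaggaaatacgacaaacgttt
F13a1, downstream start site, chr13:37049214-37049463, minus strand: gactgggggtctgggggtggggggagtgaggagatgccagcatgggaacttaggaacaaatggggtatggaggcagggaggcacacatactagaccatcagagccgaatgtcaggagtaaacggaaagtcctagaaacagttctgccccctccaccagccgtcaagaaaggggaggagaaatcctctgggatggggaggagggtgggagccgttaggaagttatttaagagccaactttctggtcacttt
F3, chr3:121723287-121723536, plus strand: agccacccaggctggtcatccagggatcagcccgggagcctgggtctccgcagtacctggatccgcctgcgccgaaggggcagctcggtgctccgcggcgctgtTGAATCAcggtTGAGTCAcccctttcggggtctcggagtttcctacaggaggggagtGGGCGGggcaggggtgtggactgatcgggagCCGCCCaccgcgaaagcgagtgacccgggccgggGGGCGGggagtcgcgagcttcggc
F2r, chr13:95618467-95618716, minus strand: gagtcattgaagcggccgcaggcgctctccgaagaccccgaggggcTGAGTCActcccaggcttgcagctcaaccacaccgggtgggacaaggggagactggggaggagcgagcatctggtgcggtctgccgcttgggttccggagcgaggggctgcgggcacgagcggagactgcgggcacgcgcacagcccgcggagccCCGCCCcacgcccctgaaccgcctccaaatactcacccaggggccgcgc
Serpine2, chr1:79858666-79858915, minus strand: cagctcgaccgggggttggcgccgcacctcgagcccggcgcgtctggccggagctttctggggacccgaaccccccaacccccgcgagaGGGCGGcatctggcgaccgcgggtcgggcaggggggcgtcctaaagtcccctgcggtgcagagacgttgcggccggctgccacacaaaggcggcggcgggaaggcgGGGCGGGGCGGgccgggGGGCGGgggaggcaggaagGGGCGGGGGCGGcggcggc

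The promoter windows of F3, F2r and Serpine2 were rich in CG pairs, and those of F13a1 were not. Those of F3, F2r and Serpine2 held 24, 24 and 34 CG pairs, and 89.3%, 89.3% and 97% of the 32851 promoter windows in the table had as many or fewer. The 2 windows of F13a1 held 3 and 4 CG pairs, where 37.8% and 44.4% of windows had as many or fewer. The window of Serpine2 held 6 GC boxes, that of F3 held 3 and that of F2r held 1, while neither window of F13a1 held any. A GC box was present in 32.7% of all windows. F3 held AP-1 elements 146 and 135 bases before its start site and F2r held 1 at 204 bases, and such an element was present in 6.75% of all windows. None of these 5 windows held the TATA box letters, which were in 12.4% of all windows. Among the other members in the table, Plaur held 6 CG pairs, 3 GC boxes and an AP-1 element 69 bases before its start site, and each of the 2 windows of Tfpi held 3 CG pairs and 1 GC box. The first of them held the TATA box letters 127 bases before the start site, read on the opposite strand. A match describes letters only. The members with CG-rich promoters included genes lower in K36M (F3, Serpine2) and a gene that was higher (F2r).

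Tissue factor and its inhibitor diverged. F3, which encodes the cell surface initiator of clotting, measured 269.6 and 267.0 CPM in WT against 109.6 and 119.0 CPM in K36M. Both K36M values lay below both WT values, 2.35-fold lower (log2 difference -1.23, SE 0.062). Tfpi encodes tissue factor pathway inhibitor, a Kunitz-type protein that blocks the tissue factor complex. It measured 108.0 and 105.0 CPM in WT against 107.0 and 116.0 CPM in K36M. The groups overlapped, with a log2 difference of 0.06 (SE 0.061), no larger than the spread between libraries, and of 0.12 without K36M replicate 1. Per kilobase of exon, the ratio of Tfpi to F3 within a library, which does not depend on how libraries are scaled, was 0.142 and 0.139 in WT and 0.347 and 0.344 in K36M, 2.45 times higher in K36M.

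The thrombin receptor and the thrombin-binding anticoagulant moved in opposite directions. F2r encodes PAR1, the main thrombin receptor of many mesenchymal cells, which thrombin activates by cutting its outer end. It measured 64.1 and 66.6 CPM in WT against 154.0 and 148.0 CPM in K36M, 2.31-fold higher with no overlap (log2 difference 1.21, SE 0.038). Thbd encodes thrombomodulin, which binds thrombin and turns it towards activating protein C. It measured 63.3 and 57.5 CPM in WT against 13.7 and 15.1 CPM in K36M. Thbd was 4.23-fold lower with no overlap (log2 difference -2.08, SE 0.099), the lowest of the 9 log2 differences. Per kilobase, F2r and Thbd were at similar levels in WT, with a ratio of 1.13 and 1.29, while in K36M the ratio was 12.5 and 10.9.

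Of the other thrombin receptor genes none was well expressed. F2rl1, F2rl2, F2rl3 and Gp1ba, the last of which encodes a platelet thrombin-binding chain, had at most 25 counts in any library. F2rl3 and Gp1ba could be tested, and 0 of these 2 were called by edgeR, where 75.6% of all genes tested were. Neither passed at an unadjusted p under 0.05 or by DESeq2. F2r was thus the thrombin receptor gene with the most counts in both groups.

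F13a1 was the member with the fewest counts in WT. It encodes the catalytic A subunit of factor XIII, a transglutaminase that cross-links fibrin and other matrix proteins, and is known from macrophages, platelets and some mesenchymal cells. It had 1 and 0 counts in the WT libraries and 501 and 319 in the K36M libraries, that is 0.0403 and 0.0 CPM against 8.82 and 9.18 CPM. Its only WT count came from WT replicate 1. The WT counts lay under the level that 3 counts would give, 0.121 and 0.13 CPM. The ratio of the group totals was 428, with a 95% exact interval of 76.6 to 16933 that covers counting error only. A smaller deposited table of the authors holds 594 genes, and how they were selected is not stated. F13a1 was the only member in it, listed with a fold of 171. That fold was formed from values with 1 added, which lowers it for a gene at 0 or 1 counts.

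Markers of the blood cells known for F13a1 were read beside it. Of 13 macrophage markers 5 were tested, 3 rose and 1 fell, where 75.6% of all genes tested were called. Those that rose were Lyz2, from 1.9 and 1.65 CPM in WT to 6.41 and 6.25 CPM in K36M, Cd14, from 3.67 and 4.34 to 6.09 and 6.5 CPM, and Csf1r, from 0.282 and 0.0869 to 0.511 and 0.461 CPM. Fcgr1 fell, from 1.09 and 1.35 CPM in WT to 0.405 and 0.489 CPM in K36M. Several other defining genes were close to 0. Ptprc (CD45) had 0 and 0 counts in WT and 8 and 7 in K36M, Emr1 (F4/80) 0 and 0 against 1 and 3, and Tyrobp 0 and 0 against 0 and 1. Cd163 had 2 and 2 against 14 and 6, Mrc1 1 and 0 against 5 and 4, and Itgam 5 and 4 against 24 and 7. Laptm5 had 6 and 3 against 4 and 6, and Fcer1g 1 and 3 against 1 and 1. These counts are not scaled to depth, which was 1.85 times greater in K36M. Cd68, at 1.09 and 1.43 CPM in WT and 1.87 and 1.61 CPM in K36M, was tested and not called. Of 10 megakaryocyte and platelet markers 5 were tested, 2 rose and 2 fell, beside the same 75.6% of all genes tested. With Gp9 at 0 throughout, the 10 markers summed to 140.2 and 145.0 CPM in WT and 58.6 and 53.2 CPM in K36M. Most of that sum was Itgb3, which many other cells also express, and which fell, as did Gp1bb, from 11.8 and 11.1 CPM in WT to 4.61 and 4.4 CPM in K36M. The markers that rose were Itga2b, from 3.35 and 3.61 CPM in WT to 5.25 and 5.44 CPM in K36M, and the platelet gene Ppbp, with 8 and 8 counts in WT and 37 and 23 in K36M (0.323 and 0.348 against 0.651 and 0.662 CPM). Pf4, a defining platelet gene, had 0 and 1 counts in WT and 4 and 2 in K36M. The part of such cells in the values of F13a1 was not tested.

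Relatives of F13a1 changed in both directions. F13b, which encodes the carrier subunit of plasma factor XIII, had 0 counts in every library. Of 8 transglutaminase genes in the matrix 4 were tested, 1 rose and 2 fell, 75% beside the 75.6% of all genes tested. Tgm2, the widely expressed tissue transglutaminase, rose from 28.4 ± 0.185 to 43.8 ± 0.901 CPM (SD, n = 2; adjusted p = 3.64e-09), 1.54-fold. Tgm5 fell 5.96-fold (adjusted p = 4.13e-10), from 4.66 ± 0.54 to 0.781 ± 0.0344 CPM. Tgm4 was 1.26-fold lower (adjusted p = 0.00756), a call lost when WT replicate 1 was left out (adjusted p = 0.16) and in the DESeq2 Wald test (adjusted p = 0.0939). By level over the 4 libraries, the genes nearest to F13a1 in the whole matrix were Fcgbp, Eda and Apob, at distances of 0.072, 0.418 and 0.443 in log2 CPM with 0.5 counts added. All 3 had 0.0403 and 0.0 CPM in WT and 7.06 to 9.19 CPM in K36M. For Thbd, the member with the largest fall, the nearest were Cntln, Pdk1 and Klf12, at distances of 0.252, 0.28 and 0.339.

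In the plasminogen system the activators and their receptor were level or higher, and the serpin Serpine2 was lower. Plau, which encodes urokinase (uPA), the activator used at cell surfaces, measured 34.4 and 32.2 CPM in WT against 32.3 and 34.7 CPM in K36M. The groups overlapped, and the log2 difference was 0.00 (SE 0.073), with either sign among the alternatives run (-0.08 to 0.06). Plat, which encodes tPA, the activator that works best on fibrin, measured 11.3 and 11.7 CPM in WT against 19.2 and 21.2 CPM in K36M. It was 1.75-fold higher with no overlap (log2 difference 0.81, SE 0.077). Plaur, which encodes the uPA receptor, measured 8.39 and 8.21 CPM in WT against 13.8 and 13.6 CPM in K36M, 1.65-fold higher with no overlap (log2 difference 0.72, SE 0.017). That SE rests on 2 libraries a group and lies below the counting error of so few counts. Within a library the ratio of Plau to Plat per kilobase was 3.28 and 2.97 in WT and 1.82 and 1.77 in K36M, so Plau exceeded Plat in all 4 libraries.

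Serpine2 was the most abundant of the 9 genes in both groups. It encodes protease nexin 1, a serpin that inhibits thrombin, uPA and tPA at cell surfaces and in matrix, and so belongs to both systems. It measured 827.0 and 834.0 CPM in WT against 231.0 and 243.0 CPM in K36M, 3.51-fold lower with no overlap (log2 difference -1.81, SE 0.04). Per kilobase, Serpine2 was 25.5 and 27.5 times as abundant as Plau in WT and 7.57 and 7.43 times in K36M. The 2 activators together, set against Serpine2, gave a ratio of 0.0512 and 0.0486 in WT and 0.205 and 0.211 in K36M, 4.16 times higher in K36M. These ratios were chosen after the values were seen and describe transcripts, not enzyme activity.

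**Figure D2:**
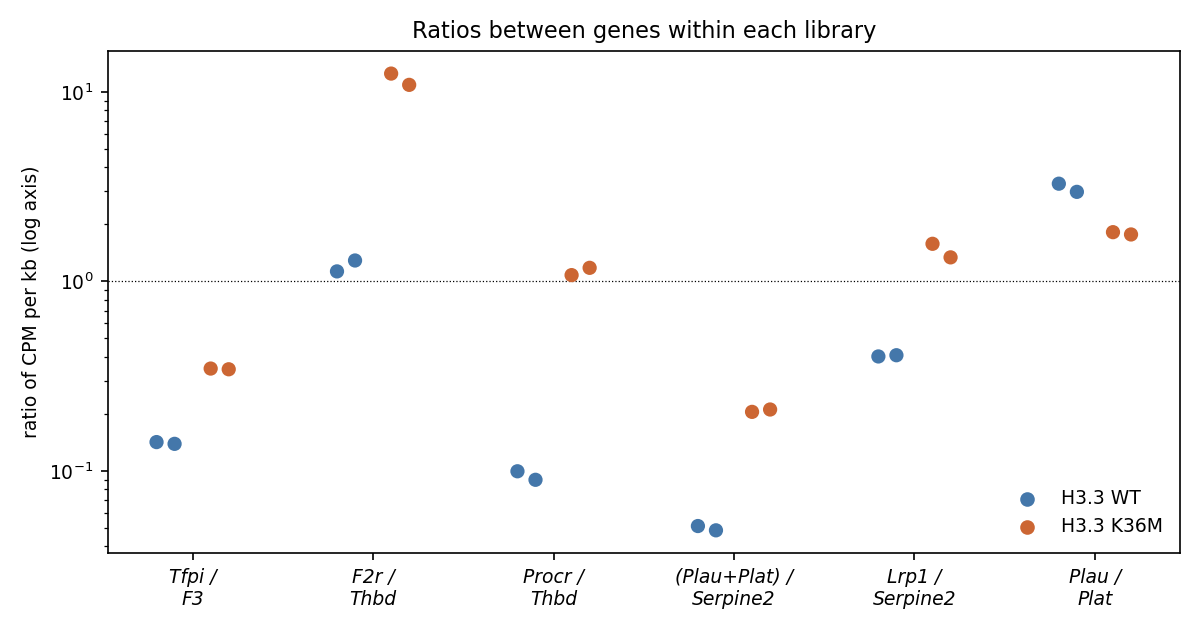
Ratio of CPM per kilobase of exon between genes named on the horizontal axis, within each library (vertical axis, log scale; blue H3.3 WT, orange H3.3 K36M; each point is a library). Tfpi to F3, F2r to Thbd, Procr to Thbd, the 2 activators to Serpine2 and Lrp1 to Serpine2 lay higher in both K36M libraries, and Plau to Plat lower.

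Per length, the order of the 9 genes differed between the groups. In WT, Serpine2 led with 376 ± 2.52 CPM per kb, then F3 with 143 ± 1.0, followed by Tfpi (20.2 ± 0.448), F2r (19.6 ± 0.52), Thbd (16.2 ± 1.09), Plau (14.2 ± 0.684), Plaur (5.51 ± 0.0847), Plat (4.55 ± 0.109) and F13a1 with its single count (SD, n = 2 throughout). Tfpi and F2r overlapped between libraries, and no other neighbours did. In K36M, Serpine2 (107 ± 4.15) and F3 (61.1 ± 3.69) still led, but F2r (45.2 ± 1.15) came close behind F3. Tfpi (21.1 ± 1.18), Plau (14.3 ± 0.749), Plaur (9.11 ± 0.068) and Plat (7.99 ± 0.567) followed, then Thbd (3.87 ± 0.268) and F13a1 (2.25 ± 0.0635), with no overlap between neighbours. Thbd thus passed from rank 5 to rank 8 and F2r from rank 4 to rank 3. Lengths were those of all exons of a gene joined, so genes with little-used long exons rank too low.

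**Figure D3:**
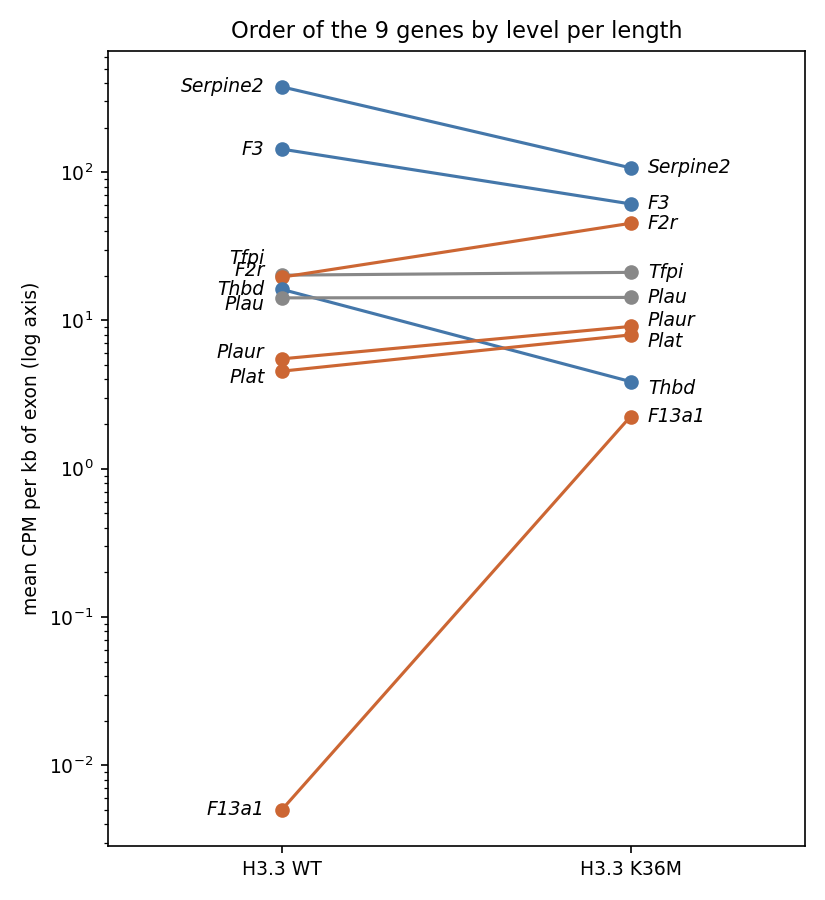
Mean level of the 9 genes in CPM per kilobase of exon (vertical axis, log scale) in H3.3 WT (left) and H3.3 K36M (right), with 2 libraries behind each point. Lines are orange where both K36M libraries lay above both WT libraries, blue where they lay below and grey where they overlapped; Thbd falls from rank 5 to rank 8 and F13a1 rises from a single count.

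Among the other clotting genes, those of prothrombin and the fibrinogen chains had at most 1 count in any library, while F5, F8 and the genes of the vitamin K cycle were expressed. Of 20 genes in the list of coagulation factors, 6 had 0 counts in every library: F9, F12, F13b and the fibrinogen chains Fga, Fgb and Fgg. F2, which encodes prothrombin, had 0 counts in both WT libraries and 1 in each K36M library. Of 10 tested, 2 rose and 4 fell, 60% where 75.6% of all genes tested were called, with a median log2 fold change of 0.07. The genes that rose, F5 and Kng1, passed the low-count filter only with the help of their K36M libraries. At a mean of 5 CPM neither of them was tested. F5, which encodes the cofactor of the prothrombin-cutting complex, rose from 0.354 ± 0.0703 to 5.34 ± 0.345 CPM (adjusted p = 1.55e-11), 15.0-fold. Kng1, the kininogen gene, had 3 counts in WT and 140 in K36M (ratio 24.4, 95% exact interval 8.17 to 119.6), and its reads may be shared with its close copy Kng2. The authors' deposited table lists F5 with a fold of 13.2 and Kng1 with 14.5.

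The 4 genes of this list that fell did so by small amounts. Ggcx and Vkorc1 encode the carboxylase and the reductase of the vitamin K cycle that matures several clotting factors and protein S. Ggcx fell 1.6-fold, from 52.3 ± 2.09 to 32.5 ± 2.93 CPM (adjusted p = 6.45e-09), and Vkorc1 fell 1.3-fold (adjusted p = 1.84e-06). F8, which encodes factor VIII, fell 1.4-fold at 9.36 ± 0.457 CPM in WT (adjusted p = 0.000228). Mcfd2, which with Lman1 carries factors V and VIII out of the endoplasmic reticulum, fell 1.23-fold (adjusted p = 1.39e-05), while Lman1 did not pass the test (log2 difference 0.05, SE 0.007, adjusted p = 0.217) except under total counts (0.10, adjusted p = 0.0198).

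Anticoagulant genes of the protein C branch changed in both directions. The list used for the count had 11 genes in the matrix and also held Gas6, taken in as a relative of protein S. Of these 4 were tested, 1 rose and 2 fell, Gas6 among them, 75% beside the 75.6% of all genes tested. The median log2 fold change of -0.79 rests on these 4 genes. Procr, which encodes the endothelial protein C receptor, rose from 2.46 ± 0.345 to 6.99 ± 0.898 CPM (adjusted p = 4.44e-08), 2.79-fold. Per kilobase the ratio of Procr to Thbd was 0.0996 and 0.0898 in WT and 1.08 and 1.18 in K36M. Pros1, which encodes protein S, the cofactor of both activated protein C and TFPI, fell from 94.6 ± 0.491 to 32.5 ± 1.67 CPM (adjusted p = 1.96e-15), 2.92-fold. Gas6, a relative of protein S that acts on TAM receptors, fell 4.27-fold, from 201 ± 2.93 to 47.0 ± 2.37 CPM (adjusted p = 7.21e-18). Anxa5, which encodes the phosphatidylserine-binding annexin A5, did not pass the test at 525 ± 14.3 and 513 ± 13.3 CPM (log2 difference -0.03, adjusted p = 0.409) but was past it under the authors' factors (-0.12, adjusted p = 0.00668). Proc itself, the protein C gene, had 0 counts in every library.

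Endothelial markers were read beside Thbd, Procr and Tfpi, which vessel lining cells also express. Of 12 such markers 6 were tested, 3 rose and 2 fell, where 75.6% of all genes tested were called. The defining genes Pecam1 (1 and 3 counts in WT, 4 and 7 in K36M), Kdr (0 and 0, 3 and 2) and Cldn5 (0 throughout) were at or near 0. The markers that fell, the direction in which Thbd lay, were Erg, from 18.2 and 16.9 CPM in WT to 0.159 and 0.288 CPM in K36M, and Tek, from 28.9 and 27.3 to 4.88 and 4.58 CPM. Those that rose were Flt1, from 39.6 and 41.6 to 69.5 and 67.9 CPM, Egfl7, from 1.94 and 1.69 to 7.52 and 7.08 CPM, and Cdh5, from 0.847 and 0.434 to 2.25 and 1.87 CPM. Vwf, at 9.84 and 10.2 CPM in WT and 11.2 and 9.93 CPM in K36M, overlapped. The part of such cells in the values of Thbd, Procr and Tfpi was not tested.

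Among genes that bind plasminogen or clear its activators, Anxa2, S100a10, Eno1, Lrp1 and Mrc2 were abundant, while Hrg had 0 counts and Vtn at most 3 in any library. Of 18 other genes of the plasminogen system in the matrix 11 were tested, 7 rose and 3 fell, 90.9% where 75.6% of all genes tested were called (38.5% higher and 37.1% lower), with a median log2 fold change of 0.37. The list was chosen with earlier results of these data known, and nothing is read from its share. 5033414D02Rik, an older name of Plgrkt, which encodes a plasminogen receptor, was 1.16-fold lower (adjusted p = 0.00547). Its call and that of Serpinf2 were lost without 1 library (any of the 4 for Serpinf2, K36M replicate 1 for 5033414D02Rik) and in the DESeq2 Wald test (adjusted p = 0.219 for Serpinf2 and 0.0682 for 5033414D02Rik). Anxa2 and S100a10 encode the 2 chains of a cell surface complex that binds plasminogen and tPA. Anxa2 fell from 1638 ± 62.4 to 1339 ± 21.9 CPM (adjusted p = 4.24e-06), 1.22-fold, and S100a10 rose from 330 ± 9.82 to 448 ± 21.1 CPM (adjusted p = 1.05e-08), 1.36-fold. Eno1, an enolase that also binds plasminogen and has processed copies in the genome, was 1.12-fold higher (adjusted p = 0.000619), a call lost when WT replicate 2 was left out (adjusted p = 0.0657). Mrc2, the uPA receptor-associated collagen receptor, rose 1.29-fold, from 415 ± 6.34 to 535 ± 25.6 CPM (adjusted p = 9.32e-08).

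The lipoprotein receptor family takes up activator and serpin complexes. Lrp1, its large member, did not pass the test, with 2484 ± 42.5 CPM in WT and 2546 ± 209 CPM in K36M (log2 difference 0.04, adjusted p = 0.532), but was past it without K36M replicate 2 (log2 difference 0.12, adjusted p = 0.000455). The ratio of Lrp1 to Serpine2 per kilobase stood at 0.402 and 0.408 in WT and at 1.58 and 1.34 in K36M. Lrp8 rose 4.25-fold, from 14.1 ± 0.886 to 59.8 ± 1.65 CPM (adjusted p = 4.13e-16), and Vldlr fell 1.18-fold (adjusted p = 0.000108). Among other serpins, Serpinb6a rose 1.55-fold, from 357 ± 10.4 to 552 ± 27.5 CPM (adjusted p = 7.03e-11), and may share reads with its close relatives. Serpini1, the neuroserpin gene that inhibits tPA, rose 2.3-fold at 1.42 ± 0.18 CPM in K36M (adjusted p = 0.000706). Plg, the plasminogen gene itself, had at most 2 counts in any library.

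Over the 5 lists together, 59 genes outside the members were in the matrix, 31 of them were tested and 22 were called, 11 higher and 11 lower. That is 71%, near the 75.6% of all genes tested, and the median log2 fold change was 0.09. Changes of at least 2-fold were seen in 9 of the 31 (29%), where 21.3% of all genes tested were called at that size. Because the lists were chosen with earlier results of these data known, nothing is read from these shares.

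**Figure D4:**
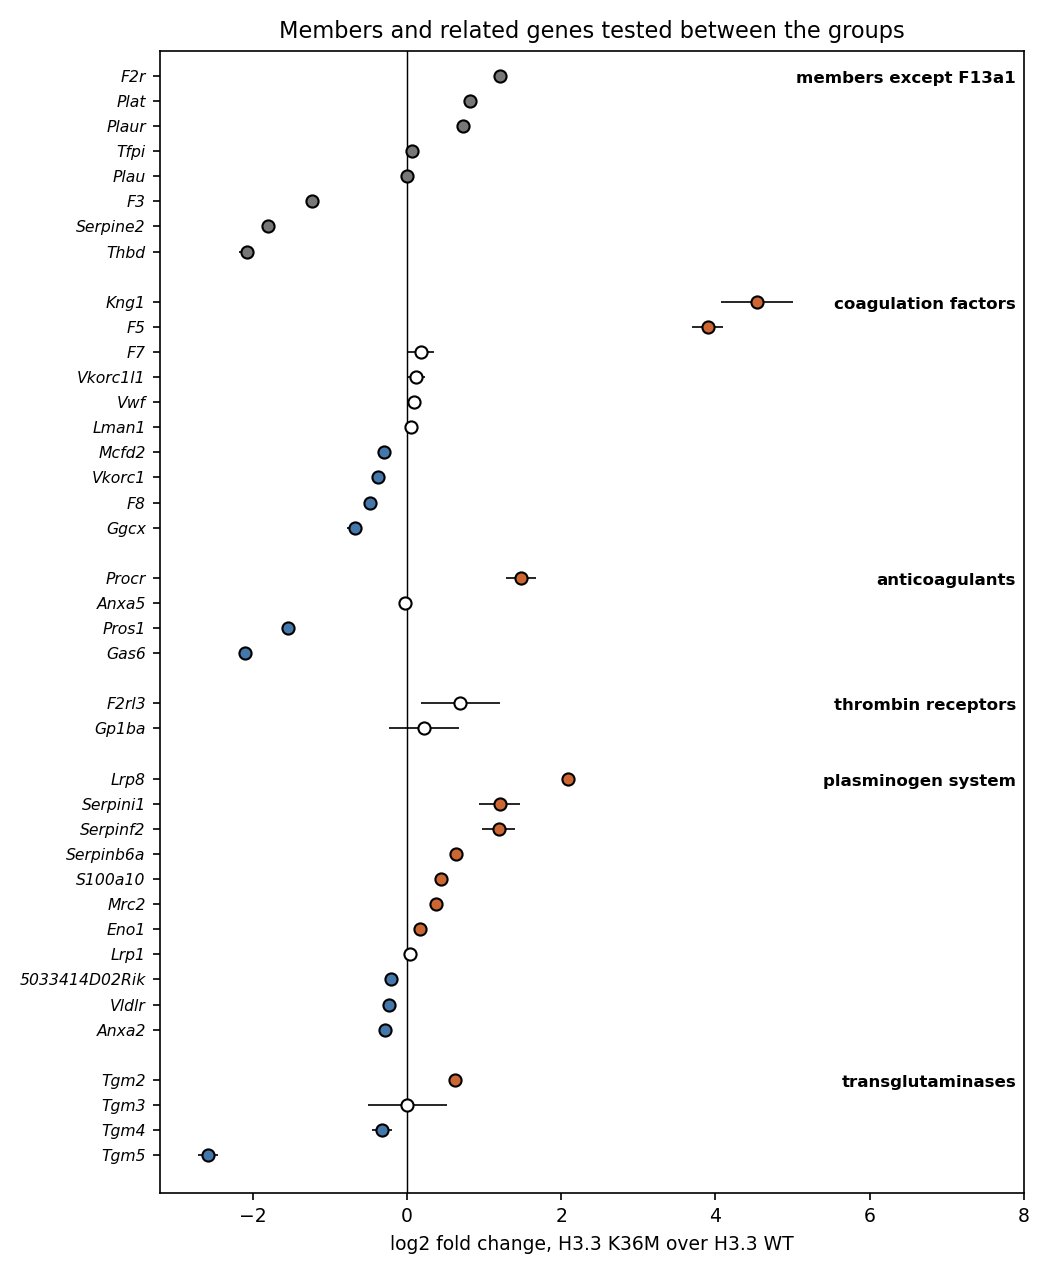
Log2 fold change of H3.3 K36M over H3.3 WT (horizontal axis) for 8 members (grey, no test shown) and the tested genes of 5 related lists, with bars for 1 SE over 2 libraries a group. Orange genes were called higher, blue lower and white neither; F13a1 is left out because its fold rests on a single WT count. Thbd, Serpine2 and F3 lie left of 0 with Pros1, Gas6 and Tgm5, and F2r, Plat and Plaur right of it with F5, Procr and Lrp8.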

How the data were processed

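RNA of 4 libraries was extracted with Trizol and prepared by the Illumina TruSeq protocol, per the labels' protocols. The authors deposited RSEM expected counts per gene symbol, made for EBSeq, per the file headers. Bowtie 1.0.0, RSEM 1.2.12 and build mm9 are named per the submitters' processing notes. For annotation, strand and poly(A) selection the sources used here say nothing. A second deposited table holds log2 values and a linear fold for 594 genes, whose selection is likewise not stated. The log2 values come from expected counts multiplied by a library factor with 1 added (largest difference 6.5e-09), and the authors' fold is the ratio of group means of those unlogged values.

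After rounding, the whole matrix was fitted with edgeR 4.0.16 in R 4.3.3 (filterByExpr, TMM, quasi-likelihood test of the group, 2 residual degrees of freedom, Benjamini-Hochberg over 13162 genes). CPM were computed on TMM-scaled library sizes. SE values come from the spread of log2 CPM (0.5 counts added) between libraries. With 2 libraries a group they can fall below counting error, as did those of Plaur (0.017) and Lman1 (0.007). A count of 3 corresponds to 0.0528 to 0.13 CPM. Libraries of a group differed beyond sampling noise (mean chi-square 3.56 in WT, 7.04 in K36M). Lengths are joined exons of GENCODE M21. Promoters come from RefSeq on GRCm38.p6, where 6 of 9 members matched. Counts simulated for this design (12985 genes in the test) gave back 100% of 2-fold changes, and 3 of 194 calls were false. The simulation gave every gene the same spread between libraries and changed only a small set of well-counted genes. It therefore cannot show how the test performs where most genes change or where counts are low. Smaller changes were simulated too, but their recovery is not given here.

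The members and gene lists were chosen with earlier results of these data known. Named genes were the members, the called list genes of at least 1 CPM on average (up to 4 per direction and list), list genes of at least 100 CPM, and the 3 genes nearest to each of 2 members. Genes named for low counts, lost calls or as markers, and Kng1, were added. Plgrkt, Epb42 and Adgre1 were read under older symbols, and Spi1 was not matched. Some genes of the plasminogen list are not reported here and are outside its counts. The alternatives were DESeq2 1.42.0 size factors, total counts or the authors' factors as scaling, other low-count filters, the DESeq2 Wald test, thinning, a replicate block and leaving out each library.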

Additional observations from a re-analysis of the deposited data

How the results depend on the processing

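Without F13a1, the 6 members whose groups did not overlap had log2 differences of the same sign in all 12 alternatives run, a description since they were chosen on this difference. These ranged from -2.17 to -2.0 for Thbd, -1.9 to -1.76 for Serpine2, -1.32 to -1.17 for F3, 1.12 to 1.26 for F2r, 0.72 to 0.89 for Plat and 0.64 to 0.77 for Plaur. F13a1 stayed higher in the 11 alternatives that tested it, but its fitted log2 difference of 8.52 was 11.42 without WT replicate 1, 7.68 without WT replicate 2 and 10.71 after thinning, since it rests on 1 WT count. At a mean of 5 CPM it was not tested. Plau changed sign around 0 (main value 0.0025), at -0.08 under the authors' factors, -0.0042 without a low-count filter, -0.0075 after thinning, and -0.05 to 0.06 leaving out a library. Tfpi stood at -0.02 under the authors' factors, at 0.11 under total counts and at 0.12 without K36M replicate 1. Lman1 was at -0.03 and Lrp1 at -0.05 under the authors' factors, Lrp1 at -0.05 to 0.12 leaving out a library, and Anxa5 at 0.02 under total counts. Lman1 gained a call under total counts and Anxa5 under the authors' factors, and the DESeq2 Wald test lost Tgm4, Serpinf2 and 5033414D02Rik. The pathway genes called higher numbered 11, and 6 at a mean of 5 CPM, where fewer genes were tested. The pathway genes called numbered 16 to 23 over the alternatives, and 20 to 22 leaving out a library. Serpinf2 was lost from the calls in each fit without 1 library (adjusted p = 0.0556 to 0.149) and under the block (0.0561), and 5033414D02Rik (Plgrkt) without K36M replicate 1 (adjusted p = 0.0837). Kng1 moved from 4.54 to 5.15 without WT replicate 2. The labels share replicate numbers between groups without saying that they pair libraries, and deviations of same-numbered libraries correlated at 0.00784. With the replicate number as a block 9804 genes were called in place of 9949, and 21 pathway genes in place of 22. The median log2 difference of all genes was -0.083 under the authors' factors and 0.053 under total counts. Depth limits F13a1 in WT and the other genes with few counts.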

Other observations

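Itgb3, picked out here from the marker lists after its values were seen, encodes the integrin beta 3 chain that platelets and many adherent cells use to bind fibrinogen and vitronectin. It measured 124.0 and 129.0 CPM in WT against 47.5 and 42.2 CPM in K36M.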
